A study of Homo sapiens with 18 samples.

Results

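Panc1 Holoclone cells were compared with the parental Panc1 cells from which they were cloned, across all genes. The comparison uses 6 of the 18 RNA-seq libraries of the series, 3 of Holoclone cells and 3 of parental cells, chosen by their labels. Panc1 is an established human cell line from a primary pancreatic ductal adenocarcinoma (PDAC) and served as the mesenchymal-like PDAC model. The other 12 libraries are Panc1 Paraclone cells and the parental, Holoclone and Paraclone cells of Panc89, the epithelial model, which derives from a lymph node metastasis. The labels name no treatment and no introduced allele for any group, and the cells were grown in Panc-medium. The parental group is a heterogeneous population, whereas the Holoclone group is the expanded progeny of 1 single cell. RNA of each group came from 3 passages, so the replicates are passages of 1 clone or of 1 parental culture. The p-values measure the spread between passages, which was estimated over all 18 libraries of the series. A difference between the groups can therefore belong to the Holoclone type or to the 1 cell that was cloned, and these cannot be told apart with 1 clone.

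Single carcinoma cells give colonies of different shapes. Holoclones are compact, round colonies rich in cells that renew themselves and are used as a source of cancer stem cells (CSCs), while Paraclones are loose colonies of more differentiated cells. CSC properties are often studied together with the epithelial-mesenchymal transition (EMT), in which tumour cells lose E-cadherin and desmosome contacts, take up vimentin and N-cadherin and remodel the matrix around them. The comparison with the parental population asks which transcripts set the cloned CSC-type cells apart from the mixture they came from.

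Values are TPM, the share of each transcript in its library corrected for transcript length, so that levels of different genes can be set side by side, and fold changes and standard errors (SE) are on the log2(TPM + 1) scale, which understates changes of genes near or under 1 TPM. Between 13369 and 13686 genes reached 1 TPM in each of the 6 libraries. Mitochondrially encoded transcripts took 5.74% to 9.44% of the TPM. Correlations across genes, which are not independent replicates, were 0.975 to 0.987 within the parental group, 0.981 to 0.991 within the Holoclone group and 0.962 to 0.974 between the groups. Parental replicate 2 was the library least like its own group, with correlations of 0.975 and 0.977. Both groups carried the markers of the mesenchymal-like line: VIM (vimentin) was at 2021 TPM or more, ZEB1 at 15.8 TPM or more and the simple epithelial keratins KRT8 and KRT18 at 1043 TPM or more in every library, while CDH1 (E-cadherin) did not pass 1.83 TPM. Of 20 markers of blood, endothelial and fibroblast cells, 18 were under 1 TPM in all 6 libraries. The exceptions were CD68, at 88.0 to 96.8 TPM in parental and 52.2 to 69.0 TPM in Holoclone libraries, and HBA1, at 0 to 2.61 TPM in parental and 2.24 to 3.74 TPM in Holoclone libraries. Of 15 markers of Panc89-like epithelial cells, 5 were under 1 TPM in all 6 libraries, among them PSCA, FXYD3, CEACAM6 and MAL2. The others were present in both groups or in some libraries. KRT19 was the highest, at 183 to 1097 TPM over the 6 libraries. AGR2 was at 104 to 394 TPM, CLDN4 at 116 to 225 TPM and CLDN7 at 47.9 to 173 TPM. EPCAM, S100P, ELF3, LCN2, LGALS4 and ESRP1 passed 1 TPM in at least some libraries. In the test described below, 4 of the 15 were lower in Holoclone cells and 1 was higher, against 5.06% and 5.87% of all genes. Their median log2 fold change was -0.38. KRT19, CLDN7, ELF3 and LGALS4 were lower and EPCAM higher. The call of LGALS4 (log2 fold change -1.34) was lost with the 6 libraries alone (adjusted p = 0.0597, limma-trend).

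Holoclone cells differed from parental Panc1 cells at 1759 of the 16093 genes tested, or 10.9% (limma-trend, adjusted p under 0.05 by Benjamini-Hochberg over all genes). Of these, 945 were higher in Holoclone cells (5.87% of the genes tested) and 814 were lower (5.06%). The larger changes were mostly falls: 516 called genes changed by over 1 on the log2 scale, and 340 of them were lower and 176 higher in Holoclone cells. Over the whole set of tested genes the median change was 0.014 on the log2 scale. Protein-coding genes made up 1584 of the calls and long non-coding RNAs 107. The 3 values of one group lay wholly above or below the 3 of the other for 4882 genes (30.3% of those tested), and for 1734 of the 1759 called genes. The count of calls fell to 1061 without Holoclone replicate 3 and was 1306 to 1571 without each of the other 5 libraries in turn.

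**Figure D1:**
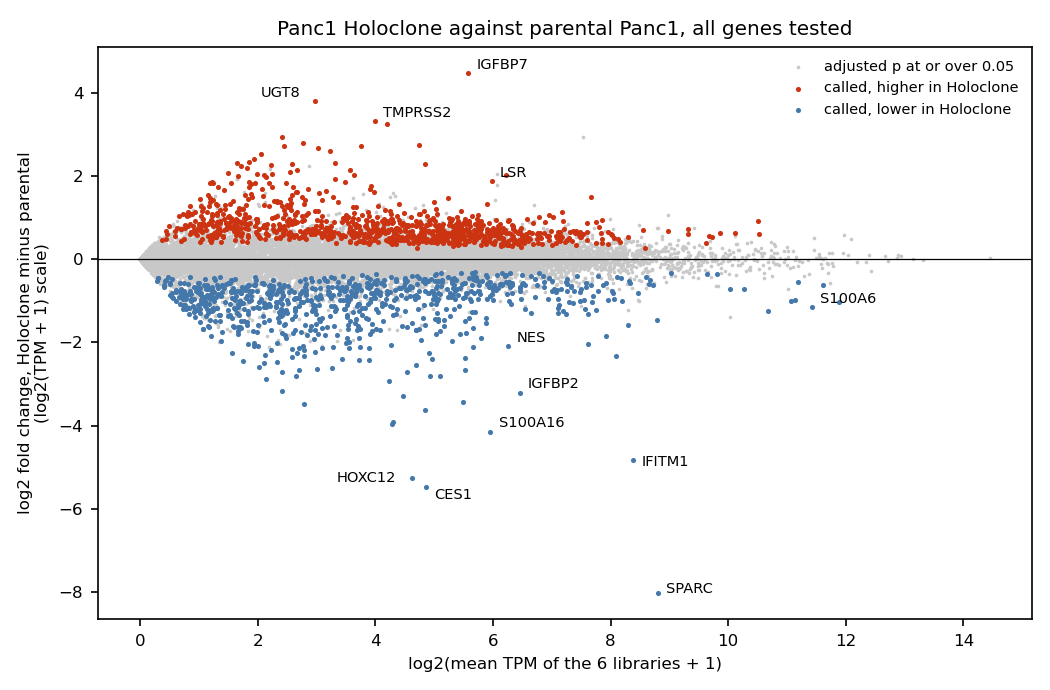
Each point is 1 of the 16093 genes tested, with its mean level in the 6 libraries on the x axis (log2(TPM + 1)) and its log2 fold change, Panc1 Holoclone minus parental, on the y axis. The 945 red genes were higher and the 814 blue genes lower in Holoclone cells; SPARC, at -8.02, lies far below every other gene, and IGFBP7, at 4.47, is the highest.

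The largest rise was that of IGFBP7, a secreted protein of the insulin-like growth factor (IGF) binding protein superfamily (ENSG00000163453, chr4:57030773-57110385, minus strand, GRCh38). It was measured at 2.54, 3.15 and 3.22 TPM in parental replicates 1 to 3 and at 68.6, 127 and 75.2 TPM in Holoclone replicates 1 to 3. Every Holoclone library was thus above 60 TPM while no parental library reached 4, a 30.4-fold difference of the mean TPM (log2 fold change 4.47, SE 0.26, adjusted p = 2.34e-08). Panc1 Paraclone cells, the other clone of the line, held IGFBP7 at 0.0263 to 0.0586 TPM.

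UGT8, the enzyme that makes galactosylceramide, was at 0.0699, 0 and 0.0624 TPM in parental and 15.2, 11.4 and 14.3 TPM in Holoclone libraries (log2 fold change 3.80, SE 0.26, adjusted p = 1.17e-07). TMPRSS2, a transmembrane serine protease of epithelial surfaces, stood at 1.06, 2.08 and 2.59 TPM in parental and 22.9, 34.1 and 26.3 TPM in Holoclone cells (log2 fold change 3.32, SE 0.19, adjusted p = 1.62e-08). In both of these genes the lowest Holoclone library lay several-fold above the highest parental one. MACROH2A2, a histone variant that accompanies silent chromatin, was at 7.32, 4.75 and 5.79 TPM in parental and 48.9, 36 and 52.3 TPM in Holoclone libraries (log2 fold change 2.75, SE 0.21, adjusted p = 5.28e-07). CACNA2D1, an auxiliary subunit of voltage-gated calcium channels, went from 2.94, 1.85 and 3.03 to 22.2, 23.3 and 21.9 TPM (log2 fold change 2.72, SE 0.28, adjusted p = 1.23e-05), with Holoclone libraries that hardly differed from each other. SLFN11, a protein that blocks stalled replication forks under DNA damage, was at 1.82, 3.69 and 1.73 TPM in parental and 16.2, 17.1 and 13.1 TPM in Holoclone cells (log2 fold change 2.31, SE 0.46, adjusted p = 0.00387).

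Other large rises were those of LINC00869, a long non-coding RNA (2.78), RFLNA, an actin regulator of the refilin family (2.67), the serine/threonine kinase STK33 (2.61) and the ADP-ribosyltransferase ART5 (2.28). Each of them had 3 Holoclone libraries above all 3 parental ones, which the naming rule required. ART5 spread widely among the parental libraries, at 14.6, 2.68 and 13.2 TPM, with replicate 2 the lowest, against 49.3, 32.9 and 53.2 TPM in the Holoclone libraries, and its call was lost when only the 6 libraries were fitted (adjusted p = 0.0889). In Panc1 Paraclone cells CACNA2D1 stood at 32.7 to 48 TPM, also above the parental libraries. The 2 clone comparisons share the parental libraries, so a high or low parental value moves them together.

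**Figure D2:**
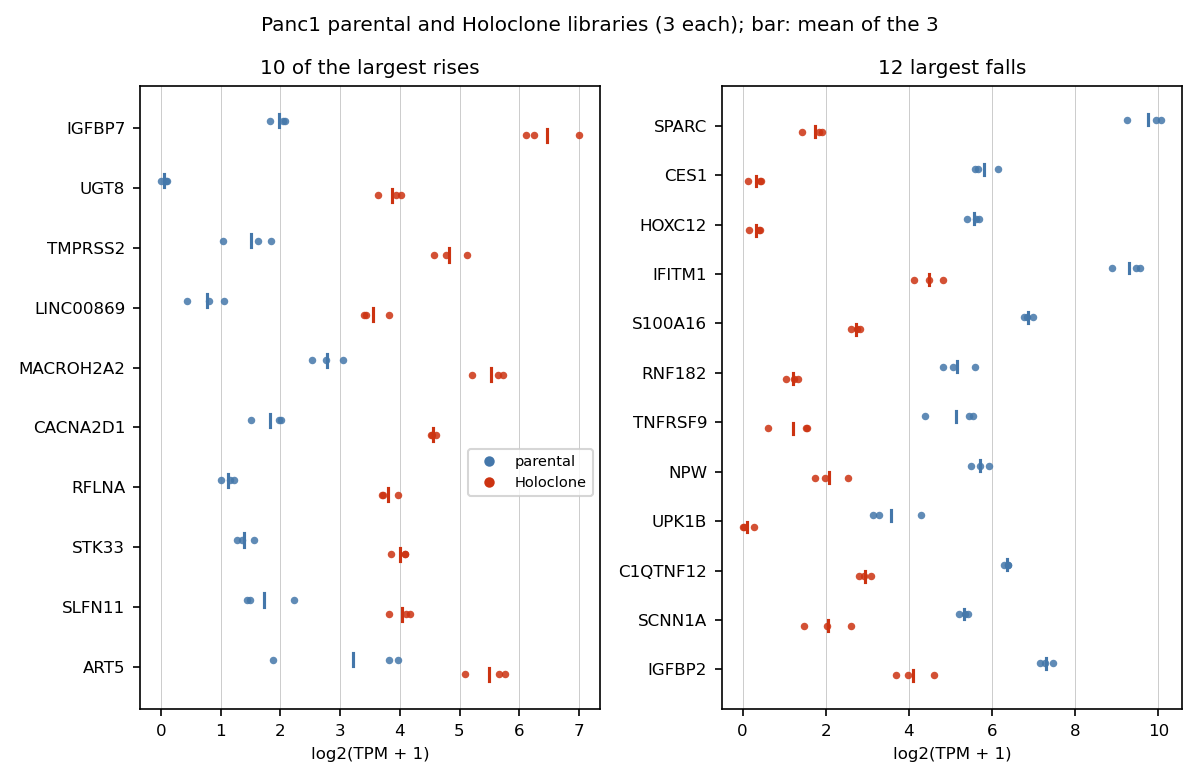
Levels as log2(TPM + 1) in the 3 parental (blue) and 3 Holoclone (red) Panc1 libraries for 10 of the largest rises (left) and the 12 largest falls (right); each point is 1 library and each bar the mean of 3. Holoclone and parental points do not overlap for any of the 22 genes, as the rule that chose them required.

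The largest fall of all genes tested was that of SPARC, a collagen-binding matricellular glycoprotein (ENSG00000113140, chr5:151661096-151686975, minus strand, GRCh38). SPARC was among the abundant transcripts of parental cells, at 984, 608 and 1072 TPM, and was at 2.77, 2.6 and 1.71 TPM in Holoclone cells (log2 fold change -8.02, SE 0.20, adjusted p = 5.9e-13). The mean TPM of the parental libraries was 376 times that of the Holoclone libraries. Panc1 Paraclone cells held SPARC at 60.02 to 78.5 TPM, between the levels of parental and Holoclone cells. Its promoter is printed because no other gene of the comparison changed as much. The RefSeq sequence runs from 250 bases before to 10 bases after the annotated start on the minus strand (GRCh38.p14, chr5:151686906-151687165), written 5′ to 3′ with each CG in capitals.
SPARC promoter: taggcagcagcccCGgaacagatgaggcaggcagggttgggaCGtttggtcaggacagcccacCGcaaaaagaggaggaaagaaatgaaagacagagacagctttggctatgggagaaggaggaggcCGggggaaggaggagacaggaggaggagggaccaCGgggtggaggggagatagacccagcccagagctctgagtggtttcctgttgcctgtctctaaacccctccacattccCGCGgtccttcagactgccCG
It holds 8 CG pairs in 260 bases. The windows around all RefSeq starts hold a median of 14, but they are 300 bases long and run to 50 bases after the start. The 2 counts are therefore not on equal lengths. Methylation was not measured in these samples.

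CES1, a carboxylesterase that hydrolyses esters and many prodrugs (ENSG00000198848, chr16:55802851-55833337, minus strand), was at 46.9, 50.1 and 69.9 TPM in parental libraries and 0.346, 0.0964 and 0.354 TPM in Holoclone libraries (log2 fold change -5.47, SE 0.18, adjusted p = 2.57e-11). HOXC12, a homeobox factor of the posterior HOXC cluster (ENSG00000123407, chr12:53954903-53958956, plus strand), was at 48.3, 50.8 and 41.5 against 0.322, 0.12 and 0.332 TPM (log2 fold change -5.25, SE 0.11, adjusted p = 1.15e-13). Both were on in every parental library and near 0 in every Holoclone library. S100A16, a calcium-binding protein of the S100 family, fell from 126, 114 and 108 to 5.07, 5.74 and 6.09 TPM (log2 fold change -4.14, SE 0.15, adjusted p = 9.99e-11), while Paraclone cells held it at 179 to 269 TPM. The brain-enriched ubiquitin ligase RNF182 fell from 27.1, 46.9 and 32.1 to 1.05, 1.36 and 1.5 TPM (log2 fold change -3.95, SE 0.25, adjusted p = 5.3e-08), and the Paraclone level was 25.4 to 50.6 TPM. TNFRSF9, the co-stimulatory receptor 4-1BB, was at 45.8, 19.9 and 42.4 TPM in parental libraries, with replicate 2 the lowest, and at 0.521, 1.87 and 1.9 TPM in Holoclone libraries (log2 fold change -3.90, SE 0.46, adjusted p = 4.28e-05). No Holoclone value of these genes came near the parental range.

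SCNN1A, the alpha subunit of the epithelial sodium channel, fell from 40.04, 35.7 and 41.6 to 3.09, 5.11 and 1.8 TPM (log2 fold change -3.28, SE 0.29, adjusted p = 2.54e-06). IGFBP2, an IGF carrier protein, fell from 141, 176 and 153 to 11.9, 23.1 and 14.8 TPM (log2 fold change -3.21, SE 0.20, adjusted p = 5.3e-08), and Paraclone cells were lower still, at 0.759 to 0.902 TPM. The other falls of this size were those of the neuropeptide precursor NPW (-3.63), the urothelial tetraspanin UPK1B (-3.47) and the adipokine C1QTNF12 (-3.42), alongside IFITM1, described with the interferon-stimulated genes.

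Among the called genes that changed by over 1 on the log2 scale, the 12 with the highest mean level were all lower in Holoclone cells. TMSB4X, the actin-sequestering peptide thymosin beta 4, was at 5079, 5083 and 5113 TPM in parental and 2354, 2821 and 2332 TPM in Holoclone libraries (log2 fold change -1.03, SE 0.13, adjusted p = 0.000112). S100A6, a calcium-binding protein common in pancreatic carcinoma cells, was at 4051, 3459.8 and 3744 against 1979.8, 1329.6 and 1844 TPM (log2 fold change -1.14, SE 0.19, adjusted p = 0.000839). ASPH, an aspartyl hydroxylase of the endoplasmic reticulum, fell from 341, 251 and 312 to 145, 126 and 116 TPM (log2 fold change -1.21, SE 0.19, adjusted p = 0.000475). MT2A, a metal-binding metallothionein, fell by 1.01 (adjusted p = 0.0187) and SAT1, the catabolic enzyme of polyamines, by 1.58 (adjusted p = 0.0224). These calls were less firm than the rest: that of MT2A was lost without parental replicate 1, Holoclone replicate 1 or Holoclone replicate 3 (adjusted p = 0.0644, 0.0721 and 0.0716), and that of SAT1 without parental replicate 1 or 3 or Holoclone replicate 1 or 3 (0.0913, 0.0784, 0.0566 and 0.0863). ACADVL, which starts the mitochondrial oxidation of very long fatty acids, fell by 1.02 (adjusted p = 0.00153), and the other 6 of the 12 appear with their lists.

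Genes that were on in one group and near 0 in the other numbered 11, with "on" set at 5 TPM or more in all 3 libraries and "near 0" under 0.5 TPM in all 3. Of these, 8 were on in parental and near 0 in Holoclone cells, and 3 were the reverse. Besides CES1, HOXC12 and UPK1B, the 8 were the zinc finger gene ZNF512, the neural alpha-catenin CTNNA2, the kelch protein KLHL14, the ring finger gene LONRF2 and the homeobox gene ALX4. CTNNA2 was at 6.91, 5.29 and 8.08 TPM in parental and 0.0852, 0.022 and 0.0061 TPM in Holoclone libraries, and ALX4 at 6.72, 5.42 and 5.61 against 0.178, 0.115 and 0.128 TPM. HOXC12, CTNNA2 and ALX4 were under 0.5 TPM in Panc1 Paraclone cells as well, whereas UPK1B, KLHL14 and LONRF2 were at 5 TPM or more in all 3 Paraclone libraries. The 3 genes on in Holoclone cells were UGT8, the X-linked homeobox gene ESX1 and the heparan sulfate proteoglycan GPC6. ESX1 was at 0.145, 0.415 and 0.136 TPM in parental and 8.01, 8.42 and 8.58 TPM in Holoclone libraries, and GPC6 at 0.228, 0.236 and 0.184 against 5.85, 5.68 and 6.58 TPM, and all 3 genes were near 0 in Paraclone cells. KLHL14, LONRF2 and ALX4 lie outside the naming rule and were named after their values were seen.

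**Figure D3:**
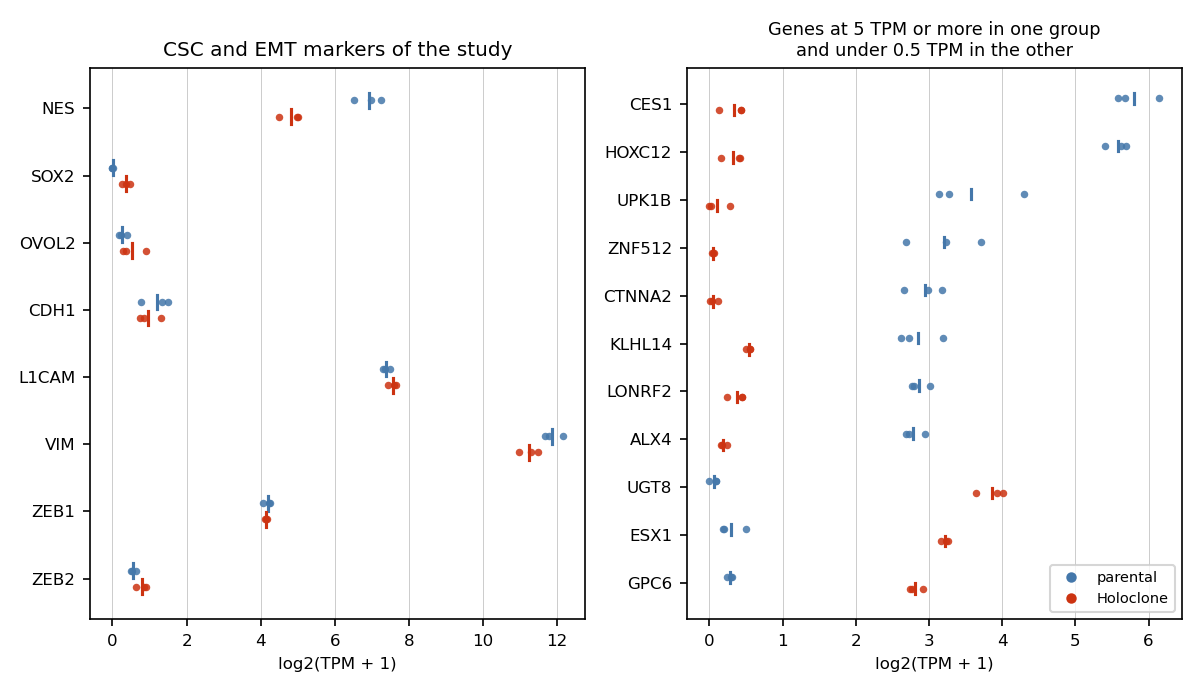
Levels as log2(TPM + 1) in the 3 parental (blue) and 3 Holoclone (red) libraries, with each point 1 library and each bar a mean of 3. On the left, of the 8 CSC and EMT markers only NES and VIM passed the test; on the right, the 11 genes that were at 5 TPM or more in one group and under 0.5 TPM in the other, 8 of them off and 3 on in Holoclone cells.

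Of the 8 CSC and EMT markers that the study followed, 2 passed the test and both were lower in Holoclone cells. The study chose these markers on the same cells, so the list is not independent evidence of a direction. NES, the intermediate filament protein nestin used as the CSC marker of Panc1, was at 125, 152 and 91.3 TPM in parental and 30.5, 21.8 and 31.3 TPM in Holoclone libraries (log2 fold change -2.09, SE 0.28, adjusted p = 0.00016). All Holoclone values lay under the parental values, and Paraclone cells were lower again, at 4.04 to 8.0 TPM. VIM fell by a smaller amount from a very high level, from 3295, 4549 and 3492 to 2021, 2854 and 2520.3 TPM (log2 fold change -0.62, SE 0.15, adjusted p = 0.0147), and its call was lost without parental replicate 2 (adjusted p = 0.0743) or Holoclone replicate 1 (adjusted p = 0.0809).

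The other 6 markers did not pass. ZEB1, a repressor of E-cadherin, had nearly the same level throughout, at 18.1, 17.8 and 15.8 TPM in parental and 17, 16.8 and 16.4 TPM in Holoclone libraries (log2 fold change -0.038, SE 0.26, adjusted p = 0.988). The adhesion molecule L1CAM was at 178, 156 and 164 against 192, 199.7 and 173 TPM (log2 fold change 0.18, SE 0.26, adjusted p = 0.776). ZEB2, the second ZEB repressor, was under 1 TPM in all 6 libraries, at 0.444, 0.548 and 0.41 against 0.566, 0.814 and 0.885 TPM (log2 fold change 0.25, SE 0.14, adjusted p = 0.296). The pluripotency factor SOX2 was at 0, 0.0143 and 0 TPM in parental and 0.202, 0.28 and 0.376 TPM in Holoclone libraries, both far under 1 TPM (adjusted p = 0.616), and OVOL2 and CDH1 overlapped between the groups (adjusted p = 0.383 and 0.527). The gene SOX2 passed in 3 of the alternative fits, with a pseudocount of 0.1, with the 6 libraries alone and with the 9 Panc1 libraries alone (adjusted p = 0.0172, 0.0224 and 0.00516).

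Of 16 stem cell surface and pluripotency genes tested, EPCAM rose and none fell, and the median log2 fold change was -0.031. Here and in the lists that follow, the counts stand against 5.87% of all genes higher and 5.06% lower. Of 18 EMT transcription factors and their opponents, TCF4 rose, ELF3 and KLF5 fell, and the median was 0.021. TCF4, a basic helix-loop-helix factor of the E protein family, was at 0.906, 2.3 and 1.2 TPM in parental and 5.1, 9.8 and 8.25 TPM in Holoclone cells (log2 fold change 1.82, SE 0.24, adjusted p = 0.000123). ELF3, an ETS factor of epithelia, was at 8.58, 8.35 and 11.9 against 1.92, 1.46 and 0.905 TPM (log2 fold change -2.13, SE 0.27, adjusted p = 9.1e-05). The call of KLF5 (log2 fold change -0.78) was lost without parental replicate 1 or 3 or Holoclone replicate 1 or 3, with adjusted p up to 0.127.

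Epithelial junction genes went in both directions: of 28 tested, 8 rose and 3 fell, with a median of -0.012, and these counts were the same without each of the 6 libraries. Desmosomes, the spot junctions that anchor keratin filaments between cells, held most of the rises. Their cadherins DSC2, DSG2 and DSC3, their plaque proteins DSP, PKP2 and JUP, the tricellular junction receptor LSR and the adhesion molecule EPCAM made up the 8. LSR was at 25.2, 22.1 and 30.5 TPM in parental and 83.5, 105 and 106.02 TPM in Holoclone libraries (log2 fold change 1.88, SE 0.17, adjusted p = 2.45e-06), and EPCAM at 12.5, 8.91 and 12.2 against 29, 27.2 and 31.5 TPM (log2 fold change 1.32, SE 0.15, adjusted p = 2.77e-05). DSP, the plakin that links desmosomes to keratins, was at 5.98, 7.26 and 5.54 against 15.8, 17 and 16.2 TPM (log2 fold change 1.26, SE 0.13, adjusted p = 1.5e-05). DSC2 went from 1.74, 1.42 and 2.13 to 5.72, 6.87 and 6.07 TPM (log2 fold change 1.39, SE 0.17, adjusted p = 5.52e-05) and JUP, or plakoglobin, from 92.5, 114 and 119 to 188, 158 and 166 TPM (log2 fold change 0.66, SE 0.13, adjusted p = 0.0032). The groups did not overlap in any of these.

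The members of the junction list that fell were CLDN7, PKP3 and CDS1, a lipid synthesis enzyme that is not itself a junction protein. The tight junction claudin CLDN7 was at 173, 104 and 147 TPM in parental and 55.2, 64.7 and 47.9 TPM in Holoclone libraries (log2 fold change -1.30, SE 0.25, adjusted p = 0.00281). PKP3, a desmosomal plakophilin, was at 36.4, 53.1 and 40.7 against 20.5, 22.6 and 21.7 TPM (log2 fold change -0.96, SE 0.12, adjusted p = 9.3e-05), so that plakophilins 2 and 3 moved in opposite directions, with PKP2 at 0.532, 0.516 and 0.375 against 1.67, 1.38 and 2.04 TPM. Of 17 keratins tested (median -0.032), none rose, and KRT19 and KRT86 fell. KRT19, the keratin of ducts, was at 422, 1097 and 469 TPM in parental libraries, with replicate 2 the highest, and at 198, 285 and 183 TPM in Holoclone libraries (log2 fold change -1.46, SE 0.29, adjusted p = 0.00317). It was no longer called when only the 6 libraries were fitted (adjusted p = 0.1), and the call of KRT86 (log2 fold change -0.80) was lost without each library but parental replicate 2, with adjusted p up to 0.202.

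Mesenchymal adhesion and matricellular genes also split. Of 22 tested, 6 fell and 2 rose, and the median was -0.21. The 2 rises were classical cadherins of mesenchymal cells: CDH2 (N-cadherin) went from 4.35, 5.28 and 4.38 to 11.5, 16.3 and 13.6 TPM (log2 fold change 1.38, SE 0.28, adjusted p = 0.0045) and CDH11 from 0.0705, 0.563 and 0.237 to 4.28, 3.34 and 3.01 TPM (log2 fold change 1.82, SE 0.28, adjusted p = 0.000421). The desmosomal cadherins DSC2, DSG2 and DSC3 of the junction list also rose, while CDH1 was not called. These cadherins were brought together from 2 lists after their values were seen, and cadherins were not counted as a family. Of them, CDH2, DSC3, DSC2 and DSG2 lie close together, within chr18:27932879-31549008. Chromosome 18 had 23.6% of its genes higher, as described with the chromosomes. Beside SPARC and VIM, the falls were S100A4, TGFBI, EMP3 and LOXL1. S100A4, a calcium-binding protein linked to motility, fell from 323, 297 and 319 to 64.8, 94 and 69.1 TPM (log2 fold change -2.05, SE 0.23, adjusted p = 2.4e-05), and TGFBI, a matrix protein induced by TGF-beta, from 377, 369 and 379 to 92.6, 134 and 88.9 TPM (log2 fold change -1.85, SE 0.21, adjusted p = 2.5e-05). Both had tight replicates and were higher in Paraclone cells, at 577 to 608 TPM for S100A4 and 584 to 742 TPM for TGFBI. The calls of EMP3 and LOXL1, at log2 fold changes of -0.61 and -0.71, were lost without most single libraries, with adjusted p up to 0.125 for EMP3 and 0.101 for LOXL1, and the count of falls was 3 to 4 without each library in turn.

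Collagens fell where they changed. Of 23 tested, 6 were lower and none was higher, and the median was -0.15. COL5A2, a chain of the fibril-regulating collagen V, was at 55.8, 45.4 and 56.1 TPM in parental and 5.16, 8.57 and 6.32 TPM in Holoclone libraries (log2 fold change -2.82, SE 0.16, adjusted p = 1.38e-08), and its partner chain COL5A1 was at 4.36, 4.89 and 3.45 against 0.924, 0.749 and 0.77 TPM (log2 fold change -1.52, SE 0.12, adjusted p = 9.73e-07). COL11A1, of the related collagen XI, went from 15.7, 21.5 and 15.2 to 5.11, 7.83 and 4.82 TPM (log2 fold change -1.43, SE 0.18, adjusted p = 8.79e-05). All parental libraries were above all Holoclone libraries in these chains. COL6A3 and COL13A1 fell by 1.09 and 1.19, and COL1A1 by 0.67 with a call that was lost without each library except Holoclone replicate 2 (adjusted p up to 0.207). Paraclone cells held COL5A2 at 358 to 412 TPM.

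Among 28 integrins and laminins, 5 fell, 1 rose and the median was -0.16. ITGA2, the alpha chain of a collagen receptor, was at 51.2, 53.3 and 45.1 TPM in parental and 14.2, 15.7 and 11.4 TPM in Holoclone cells (log2 fold change -1.79, SE 0.17, adjusted p = 3.87e-06). LAMB1, a beta chain of laminins, rose from 31.8, 26.8 and 29.2 to 55.1, 52.4 and 41.8 TPM (log2 fold change 0.74, SE 0.11, adjusted p = 0.00047). The integrin chains ITGA10 and ITGB8 and the laminin chains LAMA2 and LAMA4 fell by 0.46 to 1.10, and the calls of ITGB8 (without Holoclone replicate 1, adjusted p = 0.0628) and LAMA2 (without each library, adjusted p up to 0.122) depended on single libraries.

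Of 26 matrix proteases and inhibitors, 4 fell and 2 rose, with a median of -0.013. Without single libraries the falls were 3 to 4 and the rises 0 to 1, with no rise without parental replicate 2 or any 1 Holoclone library. The gelatinase MMP2 was at 95.4, 106.31 and 105 TPM in parental and 59.3, 50.8 and 42.4 TPM in Holoclone libraries (log2 fold change -1.01, SE 0.19, adjusted p = 0.00216), and the membrane metalloprotease ADAM19 at 6.35, 9.81 and 5.59 against 1.27, 1.3 and 1.46 TPM (log2 fold change -1.78, SE 0.31, adjusted p = 0.00128). Both were without overlap. Of 17 smooth muscle and contractile genes, 3 rose (1 without Holoclone replicate 3, 2 to 3 without each other library) and 1 fell, with a median of 0.15, and CALD1, which binds actin and tropomyosin, was the largest rise, from 7.37, 6.37 and 6.32 to 19, 27.6 and 21.3 TPM (log2 fold change 1.61, SE 0.22, adjusted p = 0.000148).

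**Figure D4:**
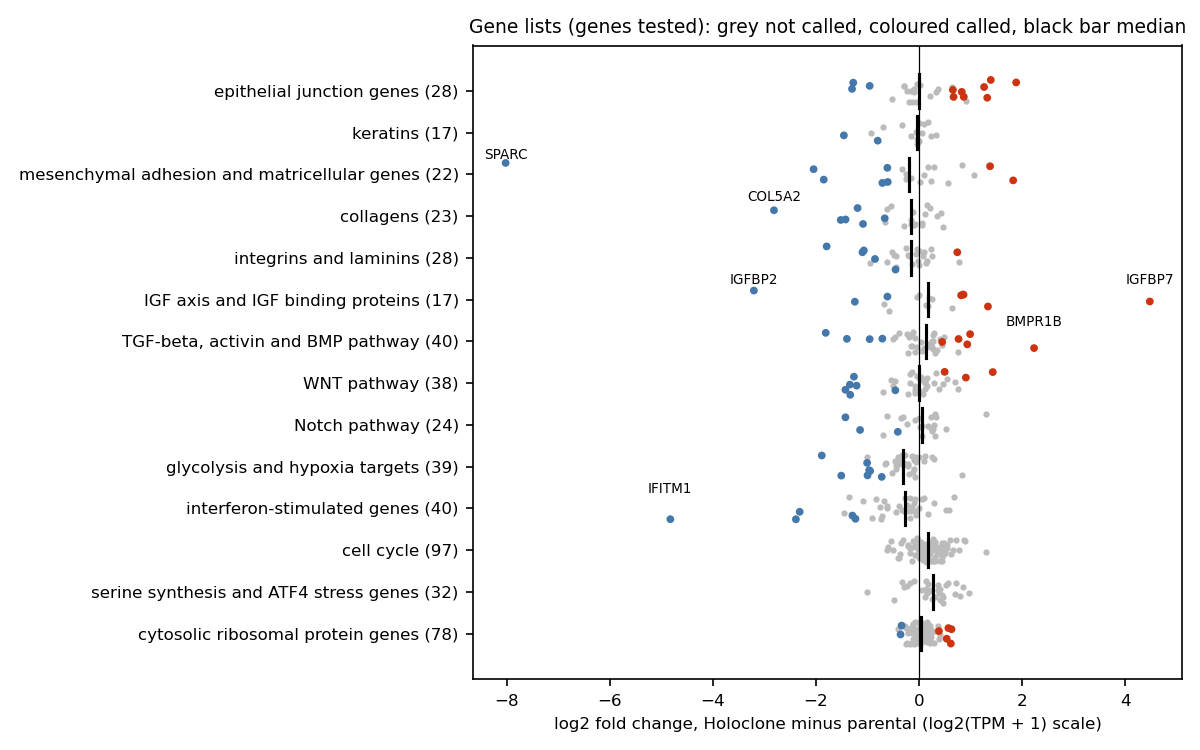
Log2 fold changes, Holoclone minus parental, of the members of 14 gene lists, with the number tested in brackets; each point is a gene, red if called higher, blue if called lower and grey if not called, and the black bar is the median of the list. Interferon-stimulated genes and glycolysis and hypoxia targets have called members only on the lower side, epithelial junction genes have 8 higher and 3 lower, and no cell cycle gene was called.

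The IGF axis had some of the largest changes in either direction. IGF ligands act through receptor tyrosine kinases, and IGF binding proteins hold the ligands in the extracellular space. Of 17 genes tested, 4 rose and 3 fell, and the median was 0.16. Binding proteins were on both sides: IGFBP7 rose and IGFBP2 fell as above, IGFBP4 and IGFBP6 rose by 0.86 and 0.81, and IGFBP1, which was near or under 1 TPM in all 6 libraries, fell by 0.61. The ligand IGF2 fell from 8.92, 9.66 and 10.5 to 3.33, 3.84 and 3.34 TPM (log2 fold change -1.25, SE 0.14, adjusted p = 3.36e-05), and IRS2, an adaptor under the insulin and IGF receptors, rose from 3.48, 1.67 and 3.76 to 9.96, 7.29 and 9.04 TPM (log2 fold change 1.33, SE 0.27, adjusted p = 0.00387). The calls of IGFBP1, IGFBP4 and IGFBP6 each missed the threshold without some single libraries, with adjusted p up to 0.111, 0.103 and 0.0653.

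The TGF-beta, activin and BMP pathway had 5 rises and 4 falls among 40 genes, and a median of 0.13. Among ligands and antagonists, BMP7 fell from 9.51, 10.4 and 10.2 to 2.0, 3.14 and 1.5 TPM (log2 fold change -1.81, SE 0.26, adjusted p = 0.000229) and the BMP antagonist NOG from 22, 16.4 and 20.6 to 6.44, 7.55 and 6.39 TPM (log2 fold change -1.40, SE 0.32, adjusted p = 0.00873), while the activin subunit INHBB rose from 4.65, 8.74 and 5.88 to 12.9, 16.2 and 11.4 TPM (log2 fold change 0.99, SE 0.19, adjusted p = 0.00252), with a call that was lost with the 6 libraries alone (adjusted p = 0.0771). Among receptors, BMPR1B had the largest change of the pathway, from 0.144, 0.104 and 0.207 to 4.29, 4.48 and 4.42 TPM (log2 fold change 2.23, SE 0.14, adjusted p = 4.22e-08), and it was close to 0 in every parental library. Among the signal transducers, SMAD2 rose from 57.6, 44.3 and 55.1 to 90.8, 107 and 103 TPM (log2 fold change 0.93, SE 0.12, adjusted p = 8.79e-05), and SMAD4 and SMAD7 rose by 0.45 and 0.77. Without single libraries 3 to 5 rises and 2 to 3 falls of the pathway were called. The calls of SMAD4 and SMAD7 were lost without parental replicate 1 or 2 or Holoclone replicate 1 or 3, with adjusted p up to 0.121 and 0.106. ID1, a direct BMP target, fell by 0.96, a call that was lost without parental replicate 2 or Holoclone replicate 1 or 3 (adjusted p = 0.109, 0.0674 and 0.0985).

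In the WNT pathway 6 of 38 genes fell and 3 rose, with a median of -0.0055. The ligand WNT5B fell from 38, 57.9 and 47.6 to 14.9, 21.4 and 15 TPM (log2 fold change -1.43, SE 0.16, adjusted p = 2.36e-05), the receptor FZD7 from 24.1, 29.2 and 27.7 to 11.4, 9.26 and 9.64 TPM (log2 fold change -1.34, SE 0.15, adjusted p = 3.66e-05) and the nuclear factor TCF7 from 15, 17.4 and 14 to 6.21, 5.71 and 4.6 TPM (log2 fold change -1.34, SE 0.26, adjusted p = 0.00274). NOTUM, a secreted enzyme that inactivates WNT ligands, rose from 2.95, 1.73 and 3.39 to 11.9, 5.21 and 10.5 TPM (log2 fold change 1.43, SE 0.29, adjusted p = 0.00385), a call that was lost with the 6 libraries alone and with the 9 Panc1 libraries (adjusted p = 0.0713 and 0.0531). The Notch list of 24 genes had 3 falls, no rise and a median of 0.053. MFNG and LFNG, glycosyltransferases that modify Notch receptors, fell by 1.43 and 1.15, and RBPJ, the DNA-binding partner of Notch, fell by 0.41. Without single libraries the calls of LFNG and RBPJ reached adjusted p of 0.113 and 0.111, and 1 to 3 falls remained.

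ERBB2, the receptor HER2, rose from 17, 14.9 and 17.6 to 42.3, 36.6 and 35.3 TPM (log2 fold change 1.16, SE 0.19, adjusted p = 0.000753), and the ERBB antagonist LRIG1 rose by 0.86 and the ligand EREG fell by 1.48, which makes 2 rises and 1 fall among 16 genes of the ERBB list. Of 24 MAPK feedback genes 2 rose and 2 fell (0 to 1 and 1 to 3 without single libraries, except 6 rises without parental replicate 3), with the ETS factor ETV1 going from 16.1, 9.3 and 12.5 to 4.44, 2.34 and 3.47 TPM (log2 fold change -1.62, SE 0.35, adjusted p = 0.00673). Of 29 YAP and TEAD targets 3 rose and 2 fell (0 to 2 and 1 to 2 without single libraries, with no rise without Holoclone replicate 3), with the membrane repair protein MYOF at 232, 224 and 216 TPM in parental and 117, 145 and 129 TPM in Holoclone libraries (log2 fold change -0.78, SE 0.15, adjusted p = 0.00313). The medians of these 3 lists were 0.0050, 0.12 and 0.25. Among 32 chemokines, interleukins and NF-kB targets (median 0.0097), CCL2, the chemokine that attracts monocytes, rose from 37.6, 19.4 and 30.3 to 121, 126 and 109 TPM (log2 fold change 2.03, SE 0.22, adjusted p = 2.22e-05), TNFAIP2 rose from 113, 97.4 and 108 to 294, 276 and 329.7 TPM (log2 fold change 1.49, SE 0.22, adjusted p = 0.000285) and the interleukin IL18 fell from 80.8, 53.7 and 102 to 10.6, 14.8 and 9.09 TPM (log2 fold change -2.65, SE 0.25, adjusted p = 5.42e-06).

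Interferon-stimulated genes fell where they changed. Of 40 tested, 5 were lower (5.06% of all genes were lower), none was higher, 33 had a negative log2 fold change and the median was -0.28. These genes are switched on by interferons through STAT and IRF factors, which bind interferon response elements, and many of them restrict viruses. The IFITM genes encode small membrane proteins that block the entry of viruses and sit side by side on chromosome 11. IFITM1 (ENSG00000185885, chr11:310041-315272, plus strand) was at 756, 472 and 706 TPM in parental and 27.3, 21.4 and 16.6 TPM in Holoclone libraries (log2 fold change -4.82, SE 0.49, adjusted p = 1.11e-05), the fourth largest fall of the comparison by the naming rule. IFITM2 fell from 486, 399 and 483 to 103, 80.4 and 89 TPM (log2 fold change -2.32, SE 0.31, adjusted p = 0.000126) and IFITM3, the most abundant of them, from 2394, 2116 and 2390.4 to 1084, 1000.4 and 856 TPM (log2 fold change -1.23, SE 0.18, adjusted p = 0.000286). The groups lay far apart in each. The 3 transcripts are alike in sequence, so the division of reads between them is uncertain.

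The promoters of IFITM1 and IFITM3 are shown because these genes carry most of the fall of the list in TPM. Both are RefSeq sequences from 250 bases before to 10 bases after the annotated start (GRCh38.p14), written 5′ to 3′ on the gene's own strand, plus for IFITM1 (chr11:313790-314049) and minus for IFITM3 (chr11:320851-321110). Both RefSeq starts lie inside the longer gene spans of the GENCODE annotation, from which the IFITM1 position above was taken. Capitals mark the letters GAAANNGAAA, the core of an interferon response element, searched on both strands.
IFITM1 promoter: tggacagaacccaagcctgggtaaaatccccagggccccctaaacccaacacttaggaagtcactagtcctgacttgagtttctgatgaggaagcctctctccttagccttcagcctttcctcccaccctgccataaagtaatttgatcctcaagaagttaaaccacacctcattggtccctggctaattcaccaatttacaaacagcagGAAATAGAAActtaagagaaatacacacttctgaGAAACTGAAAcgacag
IFITM3 promoter: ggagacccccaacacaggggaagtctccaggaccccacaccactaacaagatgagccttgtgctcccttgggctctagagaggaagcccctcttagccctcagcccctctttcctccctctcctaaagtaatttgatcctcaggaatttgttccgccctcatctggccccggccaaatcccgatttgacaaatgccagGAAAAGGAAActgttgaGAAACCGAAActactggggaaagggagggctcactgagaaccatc
Each holds 2 such matches close to the start. The letters occur on either strand in 3.57% of the 35116 RefSeq windows from 250 bases before to 50 after a start. Per gene, they occur in at least 1 window of 4.38% of all 27305 symbols, and of 23 of the 32 genes of the list that matched the RefSeq table. A match describes the sequence and does not show that a factor was bound in these cells.

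OASL, a homologue of the oligoadenylate synthetases, fell from 74.8, 27 and 52.8 to 13.3, 5.48 and 7.56 TPM (log2 fold change -2.39, SE 0.56, adjusted p = 0.0106), and its call was lost without parental replicate 1 (adjusted p = 0.0534). IFI44 went from 4.29, 2.59 and 3.44 to 1.29, 0.829 and 0.363 TPM (log2 fold change -1.29, SE 0.40, adjusted p = 0.0483), a call that was lost without each of the 6 libraries in turn, with adjusted p up to 0.193. The count of called interferon-stimulated genes was 3 to 4 without each library. The summed level of the list was 3520.2 to 4447 TPM in parental and 1440 to 1808 TPM in Holoclone libraries. Antigen presentation had 1 call: of 25 HLA and antigen processing genes, only ERAP2, an aminopeptidase that trims peptides for HLA class I, was called, at 14.9, 13.6 and 12.6 TPM in parental and 4.06, 3.7 and 3.81 TPM in Holoclone libraries (log2 fold change -1.59, SE 0.35, adjusted p = 0.00752), and the median was -0.044.

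Glycolysis and hypoxia targets were lower in Holoclone cells at 7 of 39 genes (5.06% of all genes were lower), none was higher, 34 had a negative log2 fold change and the median was -0.32. Glycolysis turns glucose into pyruvate, and its genes are induced with the hypoxia factor HIF1. At the entry of glucose, the transporter SLC2A1 (GLUT1) fell from 57.7, 72.2 and 64.1 to 31, 40.5 and 24.8 TPM (log2 fold change -1.01, SE 0.14, adjusted p = 0.00016) and the hexokinase HK2 from 9.12, 5.23 and 7.0 to 3.33, 2.69 and 3.38 TPM (log2 fold change -0.95, SE 0.17, adjusted p = 0.00139). The transporter SLC2A3 fell by 1.00 from a low level. Along the pathway, the aldolases ALDOC and ALDOA and the dehydrogenase GAPDH fell by 1.89, 0.73 and 0.97. GAPDH, often taken as a reference gene, was at 2505, 3664 and 2740.0 TPM in parental and 1343, 1770.4 and 1410.1 TPM in Holoclone libraries (adjusted p = 0.00919), with parental replicate 2 the highest, and without that library its adjusted p was 0.0504. ALDOA was at 1151, 2149.9 and 1388 against 877, 1032 and 838 TPM, and its call was lost without each library but parental replicate 1 (adjusted p up to 0.187). PDK3, a kinase that holds pyruvate back from the mitochondria, fell from 5.93, 8.36 and 5.42 to 2.44, 1.09 and 1.51 TPM (log2 fold change -1.51, SE 0.27, adjusted p = 0.00172). The summed level of the list was 12084 to 16525 TPM in parental and 9195 to 10168 TPM in Holoclone libraries, so the groups did not overlap.

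Of 33 genes of cholesterol and fatty acid synthesis (median -0.11), only SREBF1, the transcription factor that drives lipid synthesis, was called, from 201, 269.9 and 176 to 87.1, 101 and 69.4 TPM (log2 fold change -1.31, SE 0.25, adjusted p = 0.00287). Aldehyde dehydrogenases, used as CSC markers in many tumours, had 1 call among 17 genes and a median of -0.024: ALDH7A1 fell by 0.94 (adjusted p = 0.044), a call that was lost without each of the 6 libraries in turn (adjusted p up to 0.14). Among 21 gemcitabine and drug transport genes (median -0.0061), NT5C2, a nucleotidase that acts on nucleoside monophosphates, rose from 161, 94.3 and 162 to 226, 263 and 254 TPM (log2 fold change 0.87, SE 0.18, adjusted p = 0.0045), a call that was lost with the 6 libraries alone (adjusted p = 0.0874).

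None of 97 cell cycle genes was called by limma-trend (2 had an unadjusted p under 0.05), with 72 positive and 25 negative log2 fold changes, a median of 0.18 and a summed level of 5673 to 9266 TPM in parental and 6279 to 9298 TPM in Holoclone libraries. None of 32 serine synthesis and ATF4 stress genes and none of 13 mitochondrially encoded genes was called either (6 and 3 had an unadjusted p under 0.05, and the medians were 0.27 and 0.097). The summed cell cycle levels overlapped between the groups. The cyclins and CDK inhibitors had 3 rises among 21 genes and a median of 0.0060. CCND2 rose from 0.465, 0.0717 and 0.324 to 1.05, 3.1 and 2.46 TPM (log2 fold change 1.27, SE 0.22, adjusted p = 0.00132) and lost its call with the 6 libraries alone (adjusted p = 0.0597), while CCND1 and CDK4 rose by 0.60 and 0.48 with calls that were lost without at least 5 of the 6 single libraries (adjusted p up to 0.182 and 0.113).

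Of 30 HOX genes tested, 4 fell and 2 rose, with a median of -0.14. Next to HOXC12, the posterior genes HOXD10, HOXD11 and HOXA13 fell by 1.20, 0.50 and 0.84, all from under 2 TPM, and the call of HOXD11 was lost without each library but parental replicate 1 (adjusted p up to 0.118). HOXA3 rose from 16.4, 19.7 and 17.7 to 36.5, 30.2 and 35.4 TPM (log2 fold change 0.89, SE 0.10, adjusted p = 2.23e-05) and HOXB7 from 93, 83.6 and 76.8 to 129.9, 123 and 143 TPM (log2 fold change 0.64, SE 0.14, adjusted p = 0.00735), which was lost with a pseudocount of 0.1 (adjusted p = 0.212). In the list of neural adhesion and guidance genes, 5 of 41 fell and 2 rose, with a median of -0.022. The falls were 3 without parental replicate 2 or Holoclone replicate 3 and 4 to 5 without each other library, and the rises were 1 without parental replicate 1 or 2 or Holoclone replicate 2 or 3. The adhesion molecule CADM1 fell from 22.8, 43.3 and 30.2 to 2.69, 4.59 and 2.6 TPM (log2 fold change -2.93, SE 0.23, adjusted p = 7.62e-07) and the axon guidance ligand SLIT3 from 12.5, 11.3 and 11.8 to 2.55, 4.2 and 2.81 TPM (log2 fold change -1.64, SE 0.14, adjusted p = 1.13e-06). Of 15 cancer testis genes (2 rises, 1 fall, median -0.061), MAGED4B rose from 0.944, 1.4 and 0.607 to 7.95, 5.02 and 5.41 TPM (log2 fold change 1.84, SE 0.16, adjusted p = 2.42e-06) together with its near-identical copy MAGED4, so that reads of the 2 cannot be divided with certainty. Of 28 NRF2 and aryl hydrocarbon receptor targets, 1 rose (none without parental replicate 2 or any 1 Holoclone library) and 1 fell, and of 16 pancreatic and gut lineage factors 1 rose and 2 fell (medians -0.060 and -0.095). Of 78 cytosolic ribosomal protein genes, 5 rose and 2 fell, and the median was 0.042; the rises were 3 to 4 without single libraries, except 10 without Holoclone replicate 2. RPL17 was at 753, 706 and 736 TPM in parental and 1213, 1029.8 and 1158 TPM in Holoclone libraries (log2 fold change 0.63, SE 0.12, adjusted p = 0.00327), and RPL19 at 1282, 1038 and 1170.2 against 1874, 1531 and 1954 TPM (log2 fold change 0.62, SE 0.12, adjusted p = 0.00307).

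The calls were unevenly spread over the chromosomes, which is given as a description without a test. Counted here were 13445 tested genes with a known position and a mean of at least 1 TPM over the 6 libraries. Of these, 6.69% were higher and 5.46% lower in Holoclone cells. On chromosome 14, 143 of 444 such genes were higher (32.2%) and 10 lower, and the median log2 fold change was 0.41. Per library, the median deviation of these genes from the parental mean was 0.44, 0.39 and 0.39 in Holoclone replicates 1 to 3, and 0.044, 0.0097 and -0.064 in parental replicates 1 to 3, each set against the other 2 parental libraries. The 3 Holoclone libraries were thus alike and apart from all parental ones. Chromosome 18 had 43 of 182 genes higher (23.6%, median 0.24), chromosome 17 had 146 of 852 higher (17.1%) and 57 lower, and chromosome 13 had 34 of 226 higher (15.0%). Lower genes made up 77 of 594 on chromosome 5 (12.96%, against 5.46% of the genes counted, median -0.20) and 60 of 418 on the X chromosome (14.4%). SPARC, TGFBI, ITGA2, ADAM19, SLIT3, ERAP2, TCF7 and ALDH7A1, described above as falls, lie on chromosome 5, outside the block given for it below. Without Holoclone replicate 3, which lowered the count over all genes most, 85 genes of chromosome 14, 27 of chromosome 18 and 95 of chromosome 17 were higher and 39 of the X chromosome were lower.

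Along the chromosomes these genes formed long blocks in windows of 20 expressed neighbours. Blocks were picked by the median fold change of their windows, so a gap between Holoclone and parental libraries within a block follows from that choice. The 5th and 95th percentiles of the medians of 13008 windows were -0.25 and 0.37. The longest block above that range ran over chr17:21123364-42194513, from DHRS7B to GHDC, where 89 of 171 genes were higher, 6 were lower and the median was 0.62. Its Holoclone libraries were at 0.68, 0.51 and 0.64 and its parental libraries at 0.032, 0.063 and -0.066. ERBB2, CCL2, SLFN11, JUP, IGFBP4, RPL19, RPL23 and RPL23A, all described or counted above, lie inside it, and so do ALDOC and KRT19, which fell. Further blocks above the range covered chr14:66507407-95181475 (56 of 139 higher, median 0.51), chr18:36108531-76972901 (32 of 77, median 0.57) and chr13:94703454-114337626 (26 of 64, median 0.50). SMAD2, SMAD4, SMAD7, TCF4 and RPL17 lie in the block of chromosome 18, and IRS2 in that of chromosome 13.

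The clearest block below the range lay on the short arm of the X chromosome, chrX:2903972-46899703, where 35 of 80 genes were lower, none was higher and the median was -0.57. Its Holoclone libraries were at -0.52, -0.52 and -0.63 and its parental libraries at 0.061, -0.065 and 0.014. In its lowest window, from PHKA2 to PDK3, 17 of 20 genes were lower. TMSB4X, SAT1 and PDK3 lie in this block. Shorter blocks below the range lay on chromosome 17 (chr17:3802158-7614897, 16 of 84 lower, with CLDN7), chromosome 5 (chr5:139647299-149343637, 12 of 58 lower) and chromosome 1 (chr1:212992182-226186741, 8 of 44 lower). In Panc1 Paraclone cells, which are compared with the same parental libraries, the median over the genes of the chromosome 17 upper block was 0.087, that of the chromosome 14 block -0.18, that of the chromosome 18 block 0.23 and that of the chromosome 13 block 0.18. In the lower blocks it was -0.58 on the X chromosome, -0.53 on chromosome 17, -0.24 on chromosome 5 and -0.35 on chromosome 1. Over all genes counted on chromosomes 17, 14, 18 and 13, the Paraclone median was -0.26, -0.17, -0.20 and -0.20. On the X chromosome and chromosomes 5 and 1 it was -0.12, -0.15 and -0.22. The Paraclone medians of the blocks are to be read beside these values. DNA copy number was not measured here.

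**Figure D5:**
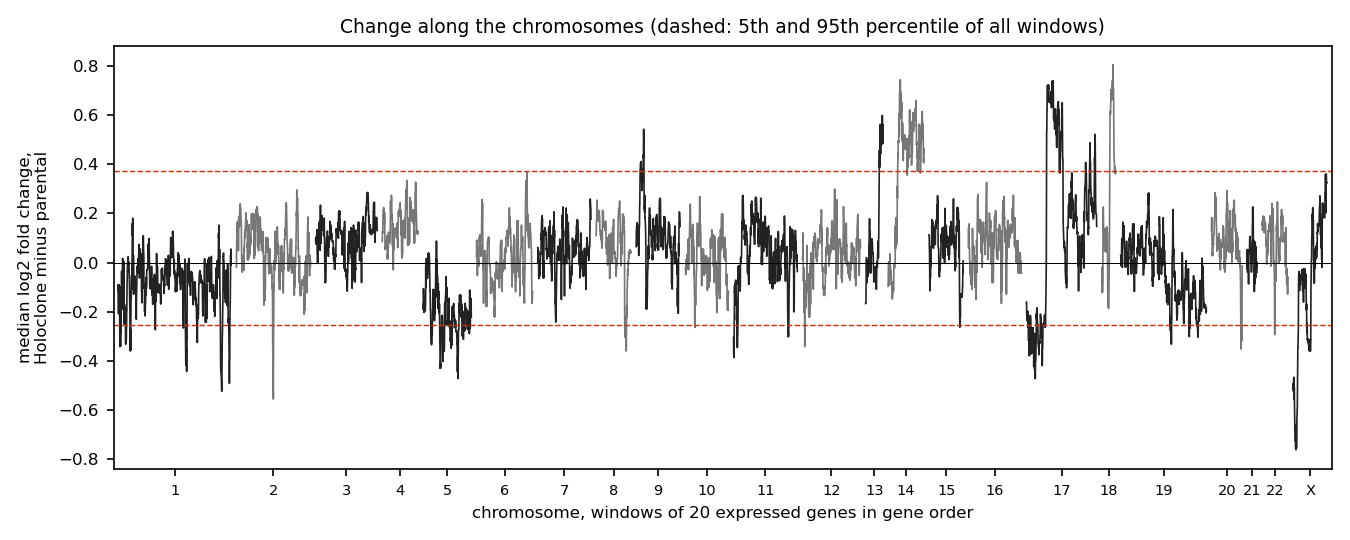
Median log2 fold change, Holoclone minus parental, in windows of 20 neighbouring expressed genes (y axis), ordered by chromosome and gene order (x axis); alternate chromosomes are black and grey, and dashed lines mark the 5th and 95th percentile of all windows, -0.25 and 0.37. Long stretches of chromosomes 13, 14, 17 and 18 lie above the upper line, and a stretch of the X chromosome falls to -0.76.

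The same contrast in Panc89, Holoclone minus parental, uses none of these 6 libraries. The change in Panc1 differed from that in Panc89 at 3013 of 16093 genes, or 18.7% (limma-trend, interaction contrast). Of 22 genes with large changes in Panc1 and the 8 markers, 25 were among them. The 22 were chosen for their change in Panc1, which is part of this contrast, so their share follows in part from the choice. IGFBP7 had positive changes in both lines, 4.47 in Panc1 and 1.78 in Panc89, and its change differed between the lines by 2.69 (SE 0.37, adjusted p = 0.000117). The Panc89 changes given here are differences of group means and were not tested on their own. SPARC fell in Panc1 and had a log2 fold change of -0.24 in Panc89 (difference -7.78, SE 0.28, adjusted p = 8.52e-11), and NES had -2.09 in Panc1 and -0.13 in Panc89 (difference -1.96, SE 0.40, adjusted p = 0.0029).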

How the data were processed

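RNA was prepared from 3 passages each of the parental line, a Holoclone and a Paraclone, for both Panc1 and Panc89, and sequenced as stranded mRNA libraries. The authors pseudoaligned the reads with kallisto 0.46.1 to the human Ensembl transcriptome (GRCh38), summarised scaled TPM per gene symbol with tximport and deposited log2(TPM + 1) values, 1 column per library with no pooling. TPM keep no depth, so the depth per library is unknown and no counting interval is given. DESeq2 was used by the authors on counts that were not used here.

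The deposited values were used as they stand. Of 40266 symbols, 16093 reached 1 TPM in 3 or more libraries and were tested with limma-trend (limma 3.58.1, R 4.3.3), two-sided, over 6 groups of 3 libraries that share 1 estimate of the spread. Genes were called at an adjusted p under 0.05 (Benjamini-Hochberg over all genes tested). Fold changes are Holoclone minus parental. The method was tested on simulated data. Positions were matched by symbol for 15875 of the tested genes.

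Named genes were the 12 highest and 12 lowest changes among called genes whose groups did not overlap and whose higher group averaged 10 TPM or more, the 8 markers of the study, up to 3 called members per list whose higher group averaged 5 TPM or more, up to 5 genes in each direction of the on and near 0 rule, and the 12 called genes of highest level that changed by over 1. Other called list members and on or near 0 genes are named beside their counts, after their values were seen. A few genes that the rule names are not reported here. The comparison, the gene lists and the tests were chosen with earlier results of these data known. Other pseudocounts, filters, scalings, sample sets and a replicate block were tried, and each library was left out in turn. Parental and Holoclone passages with the same number are not stated to share a day or culture.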

Additional observations from a re-analysis of the deposited data

Results flagged for a closer look

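The change from parental to Holoclone cells differed between Panc1 and Panc89 for 25 of 30 genes, which were 22 genes with the largest changes of Panc1 and the 8 markers (limma-trend, interaction contrast, Benjamini-Hochberg over all 16093 genes, against 18.7% of all genes). Since the 22 genes were chosen for their change in Panc1, a larger change there follows in part from the choice. Each value is the log2 fold change in Panc1 minus that in Panc89, and the Panc89 change stands in brackets.

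Among the rises of Panc1, the difference was 3.52 for UGT8 (Panc89 0.28), 3.15 for TMPRSS2 (Panc89 0.18), 2.63 for CACNA2D1 (Panc89 0.093), 3.13 for RFLNA (Panc89 -0.46), 2.41 for STK33 (Panc89 0.20) and 2.26 for ART5 (Panc89 0.019), with adjusted p up to 0.00979. It was 2.69 for IGFBP7 (Panc89 1.78), 1.87 for LINC00869 (Panc89 0.91) and 1.42 for MACROH2A2 (Panc89 1.33), with adjusted p up to 0.00354, so that these genes had positive changes in both lines and larger ones in Panc1.

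Among the falls of Panc1, the difference was -7.78 for SPARC (Panc89 -0.24), -5.42 for CES1 (Panc89 -0.044), -5.24 for HOXC12 (Panc89 -0.0074), -4.12 for S100A16 (Panc89 -0.028), -3.26 for RNF182 (Panc89 -0.69), -4.50 for TNFRSF9 (Panc89 0.60), -3.55 for UPK1B (Panc89 0.078), -3.68 for C1QTNF12 (Panc89 0.26) and -3.07 for SCNN1A (Panc89 -0.21), with adjusted p up to 0.000177. For the interferon-induced membrane protein gene IFITM1, the neuropeptide gene NPW and the IGF carrier gene IGFBP2, which had negative changes in both lines, it was -2.93 for IFITM1 (Panc89 -1.89), -2.33 for NPW (Panc89 -1.30) and -1.79 for IGFBP2 (Panc89 -1.41), with adjusted p up to 0.00781. CES1, HOXC12 and UPK1B averaged only 0.104, 0.011 and 0.017 TPM in parental Panc89 cells, so they could hardly fall in that line.

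Of the 8 markers, NES had log2 fold changes of -2.09 in Panc1 and -0.13 in Panc89, a difference of -1.96 (adjusted p = 0.0029). VIM had log2 fold changes of -0.62 in Panc1 and 0.070 in Panc89, a difference of -0.69 (adjusted p = 0.0356). OVOL2 had log2 fold changes of 0.26 in Panc1 and -1.44 in Panc89, a difference of 1.70 (adjusted p = 0.000108). L1CAM had log2 fold changes of 0.18 in Panc1 and -3.19 in Panc89, a difference of 3.37 (adjusted p = 1.46e-05). The adhesion molecule L1CAM and OVOL2, a factor that keeps cells epithelial, were not called in Panc1. What sets the lines apart was not tested.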

How the results depend on the processing

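The number of genes called, 1759, was 1322 to 1876 with another pseudocount, filter, scaling or set of libraries. It was 1061 to 1571 with each of the 6 libraries left out, lowest without Holoclone replicate 3, and 516 when a change over 1 on the log2 scale was also required. The share of called genes that were higher moved from 53.7% to 44.3% with upper quartile scaling and 46.5% with median-of-ratios scaling. Fitting the 6 libraries alone gave 1322 calls, 1039 of them among the 1759, and fitting the 9 Panc1 libraries gave 1761, with 1351 among them. With the replicate number as a block, 1402 genes were called, 1373 of them among the 1759. Same-numbered parental and Holoclone libraries deviated together only weakly (r = 0.102, 0.029 and 0.052 across genes), so the numbers were not taken as a pairing. The difference between Panc1 and Panc89 was called for 3013 genes, for 2367 to 3419 with a library left out and for 1743 with a difference over 1 on the log2 scale, and for 2478 with the replicate block. The 11 genes on in one group and near 0 in the other were 7 with median-of-ratios scaling, 9 with upper quartile scaling, 11 to 15 with a library left out and 13 with near 0 set at under 1 TPM; these checks of the count were chosen after seeing the data, as were list and chromosome counts without single libraries. Of 169 named called genes, 102 stayed called under every alternative, 67 were lost under at least 1, and none changed direction. VIM was also lost with a pseudocount of 0.1 (adjusted p = 0.144, limma-trend), with the 6 libraries alone (adjusted p = 0.14) and with the 9 Panc1 libraries (adjusted p = 0.109). With the 6 libraries alone the calls of ART5, KRT19, COL13A1, LAMA4, INHBB, NOTUM, MFNG, EREG, HK2, NT5C2, CCND2, RPL19 and ACADVL were also lost (adjusted p = 0.0561 to 0.1, limma-trend). The causes were not tested. TPM give no depth, and 3 passages of 1 clone limit what the p-values cover.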
